A study of Mus musculus with 12 samples.

Results

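The complement genes followed here are 9 components of the classical and alternative pathways, taken by name from a NanoString panel of 545 immune genes that had been counted in hippocampal microglia of young mice. They are C1qa, C1qb and C1ra, which encode parts of the C1 complex, C2 of the classical convertase, and C4a, a copy of C4. The others are C3, the alternative-pathway genes Cfb and Cfp, and the inhibitor Cfi. Of these 9 genes, 6 lay above background in enough samples to be tested, and C3, C4a and Cfb did not.

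The samples were microglia, the resident macrophages of the brain, sorted from hippocampi of BALB/c males on postnatal day 28. One group held 6 control pups. The other held 6 pups that had undergone brief daily separation (BDS), in which they were parted from the dam for 15 min a day on postnatal days 1 to 21. All 12 came from different litters, per the series' design text. No transgene or deletion is named for either group, and each sample carries its own number in the labels (control 5, 9, 13, 27, 44 and 54, and BDS 7, 21, 25, 35, 43 and 55).

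Complement is a cascade of plasma and tissue proteins that tags particles for removal. In the classical pathway C1q binds a target and its attached proteases, C1r and C1s, cleave C4 and C2, whose fragments form the enzyme that splits C3. In the alternative pathway factor B takes the place of C2, properdin steadies the enzyme on the surface, and factor I cuts the deposited C3 and C4 fragments into inactive forms. In the brain, microglia are the main makers of C1q, and C1q and C3 fragments mark synapses that microglia engulf during development through complement receptor 3, whose alpha chain is encoded by Itgam.

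Total barcode counts per sample ranged from 893936 to 1409376 in controls and from 641756 to 1171355 in BDS. Counts were divided by a housekeeping factor (the geometric mean of 6 housekeeping genes relative to its mean over samples) and are called normalized counts below. A gene counted as above background in a sample when it exceeded the mean of the negative-control probes by 2 SD, a limit of 15.3 to 21.8 counts, and it was tested where at least 5 of 12 samples did. BDS 21, BDS 25 and BDS 55 had the lowest factors, 0.590, 0.628 and 0.827, against 0.847 to 1.42 in the other 9 samples. Their ratios of Rpl19 to Polr2a counts, both housekeeping genes, were 0.790, 0.606 and 0.465, against 0.113 to 0.267 elsewhere. The microglial markers Csf1r, Cx3cr1 and Itgam were above background in 12 samples. Of the panel's markers of other cells, 4 of 9 for T cells passed the filter (Cd8b1, Cd4, Lck and Foxp3, with Cd3d and Cd3e above background in 0 samples), as did 2 of 6 for B cells, 2 of 3 for NK cells, 1 of 4 for neutrophils, 1 of 3 for blood monocytes and border macrophages (Ccr2, with Cd163 in 0 samples), 2 of 2 for endothelium, 0 of 2 for mast cells, and 2 of 2 for astrocytes, neurons and oligodendrocytes. Normalized counts were also summed over each list, genes below the filter included. In controls and BDS the T cell sums were 111 to 151 and 107 to 175, and the B cell sums 187 to 292 and 169 to 366. NK cell sums were 160 to 432 and 152 to 252, and neutrophil sums 23.6 to 141 and 31.9 to 70.0. Blood monocyte and border macrophage sums were 295 to 509 and 253 to 458, and mast cell sums 10.6 to 20.0 and 10.2 to 18.1. Endothelial sums were 974 to 1377 and 944 to 1328. Those of astrocytes, neurons and oligodendrocytes were 127 to 251 and 117 to 189, and those of microglia 155756 to 170818 and 152025 to 207388. The part of other cells in the results was not tested. Different probes capture their targets with different efficiency, so levels are compared between samples and not between genes.

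C1q, the molecule that recognizes targets, is built of several chains, of which those encoded by C1qa and C1qb are members here. C1qa had 33725, 32357, 33819, 35773, 33206 and 30057 normalized counts in controls 5, 9, 13, 27, 44 and 54. BDS 7, 21, 25, 35, 43 and 55 had 32626, 31994, 31594, 26575, 27791 and 34662. The groups overlapped: 4 BDS samples lay within the control range, and BDS 35 and BDS 43 lay below it. Means were 33156 ± 1890 in controls and 30874 ± 3072 in BDS (SD, n = 6 each). The log2 fold change, BDS over control, was -0.10 ± 0.08 (SE) with a 95% interval of -0.27 to 0.061, and it did not pass the threshold (edgeR quasi-likelihood test, adjusted p = 0.54 over 357 genes). That log2 fold change was also the median of all 357 genes tested, so C1qa stood where the panel as a whole stood.

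For C1qb, the partner chain, the BDS samples lay differently around the control range. The group difference in the C1qa to C1qb ratio, given below, did not pass the threshold. In controls 5, 9, 13, 27, 44 and 54 the normalized counts of C1qb were 26259, 26759, 22149, 23549, 23092 and 21846. BDS 7, 21, 25, 35, 43 and 55 had 21156, 33258, 34052, 21643, 21370.0 and 29129.9. No BDS sample lay within the control range: BDS 21, 25 and 55 lay above it and BDS 7, 35 and 43 below it. Of the 357 genes tested, 10 (2.80%) had BDS samples on both sides of the control range and none inside it, C1qb and the growth factor receptor Csf1r among them. The coefficient of variation of C1qb was 8.72% in controls and 22.9% in BDS, where counting error alone would give 0.616% and 0.665%. The median over the 357 genes tested was 14.8% in controls and 19.4% in BDS. From the highest down, C1qb ranked 277 in controls and 137 in BDS, so its spread in BDS was not unusual for the panel. Group means were 23942 ± 2088 and 26768 ± 6126 (SD, n = 6 each). The log2 fold change was 0.16 ± 0.13 (SE), with a 95% interval of -0.12 to 0.44 (edgeR, adjusted p = 0.57), and was 0.080 without BDS 25 and 0.089 without BDS 21.

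The BDS samples high in C1qb were those with the lowest housekeeping factors. Before scaling they held 19609, 21393 and 24090 counts, against 21360 to 31191 in the other 9 samples, and the part of RNA amount or quality in their higher scaled values was not tested. Without those 3 samples the log2 fold change of C1qb turned to -0.16 (edgeR, unadjusted p = 0.053, adjusted p = 0.87), and that of C1qa went from -0.10 to -0.19 (unadjusted p = 0.028, adjusted p = 0.79). C1qb was at -0.071 with the housekeeping count as a covariate and at -0.32 with scaling to the positive-control probes, which also turned the panel median to -0.50.

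**Figure D1:**
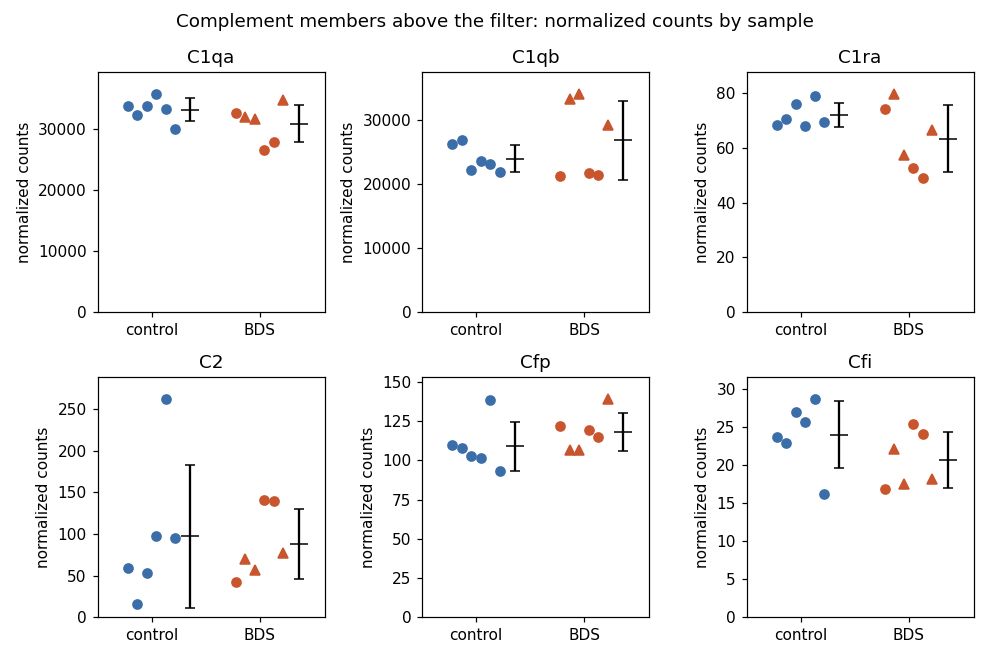
Normalized counts (y axis, linear, from 0) of the 6 tested complement members in control (blue) and BDS (orange) samples, 1 point per sample; triangles are BDS 21, 25 and 55, and black marks give the mean ± SD of 6 samples. C1qb splits the BDS samples into 3 above and 3 below every control, while C2 spreads from 16.2 to 262 within controls.

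A ratio of counts within a sample does not depend on the scaling between samples. The ratio of C1qa to C1qb counts was 1.28, 1.21, 1.53, 1.52, 1.44 and 1.38 in controls 5, 9, 13, 27, 44 and 54, and 1.54, 0.962, 0.928, 1.23, 1.30 and 1.19 in BDS 7, 21, 25, 35, 43 and 55. BDS 7 had the highest ratio of the 12 samples, and BDS 21, 25 and 55 the 3 lowest. The mean log2 ratio was 0.47 ± 0.13 in controls and 0.23 ± 0.28 in BDS (SD, n = 6 each). The difference of -0.24 did not pass the threshold (exact permutation test, two-sided, p = 0.093, adjusted p = 0.34 over 4 ratios). With single samples left out the difference ran from -0.32 to -0.17 over 12 runs. The value farthest from 0 was that without BDS 7, -0.32 (exact p = 0.022, adjusted p = 0.087). Without BDS 21, BDS 25 and BDS 55 the difference was -0.039 (exact p = 0.79).

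The counts of C1qb were set against those of Itgam, the receptor chain through which microglia bind C3 fragments. In controls the ratio of C1qb to Itgam counts ran from 0.554 to 0.601, with a log2 SD of 0.039. In BDS 7, 21, 25, 35, 43 and 55 it was 0.606, 0.947, 0.899, 0.484, 0.491 and 1.00. No BDS value fell inside the control range, with 4 above and 2 below it, and the log2 SD was 0.48. The highest ratios were those of BDS 21, 25 and 55, the samples with the lowest housekeeping factors. BDS 7, at 0.606, lay just above the highest control, at 0.601. How often the ratio of another gene to Itgam has no BDS value inside the control range was not counted. Because the BDS samples lay on both sides, the means differed by only 0.28 on the log2 scale (exact permutation test, two-sided, p = 0.17; adjusted p = 0.34), and without BDS 21, BDS 25 and BDS 55 the difference was -0.15 (exact p = 0.17). The C1qa to Itgam ratio ran from 0.726 to 0.871 in controls and from 0.594 to 1.19 in BDS, a log2 difference of 0.040 (exact p = 0.83), which was -0.19 without those 3 samples (exact p = 0.24).

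**Figure D2:**
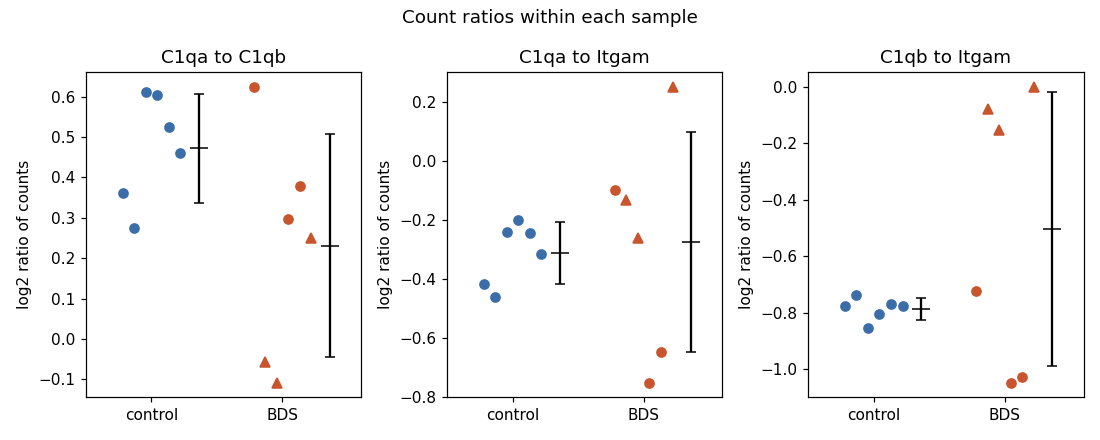
Log2 ratios of raw counts (y axis) of C1qa to C1qb, C1qa to Itgam and C1qb to Itgam in control (blue) and BDS (orange) samples, 1 point per sample with the mean ± SD of 6; triangles are BDS 21, 25 and 55. The C1qb to Itgam ratio lies within a narrow band in controls (log2 SD 0.039) and on both sides of that band in BDS (log2 SD 0.48). Its highest values are the triangles, the samples with the lowest housekeeping factors.

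The genes whose sample-to-sample deviations from the group mean were most like those of C1qb were Ctss, a lysosomal protease, Tgfb1, a cytokine that maintains microglia, and Csf1r. Pearson's r over the 12 samples was 0.94, 0.94 and 0.92 on log2(normalized count + 1). The values share the housekeeping factor of their sample. With the total endogenous count as the scale, r was 0.94, 0.93 and 0.91, and without BDS 21, BDS 25 and BDS 55 it was 0.93, 0.93 and 0.87 over 9 samples. Here and below, the group means stayed those of all 12 samples when samples were left out. The left-out samples thus still acted through the group mean, and whether the likeness holds without them was not tested. For C1qa the 3 highest were Ncf4, Bst2 and Batf3 at 0.77, 0.77 and 0.76. These fell to 0.47, 0.67 and 0.54 without BDS 35 and BDS 43, the samples in which C1qa lay farthest from its median. With the total endogenous count as the scale they were 0.68, 0.65 and 0.75, and Ncf4 and Bst2 ranked 6 and 9. C1qa and C1qb had an r of 0.49 with each other.

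Upstream sequences show the start of the gene whose level split the BDS samples, C1qb, beside that of C3, which was never above background. Of the 9 members 4 have an entry among the RefSeq promoter sequences (build GRCm38.p6). The 250 bases before the annotated start are given, on the minus strand for both genes, at chr4:136886201-136886450 for C1qb and chr17:57228137-57228386 for C3. Capitals mark GAGGAA (or TTCCTC on the other strand), a core of sites bound by the macrophage factor PU.1, and TATAAA (or TTTATA) was searched as well.
C1qb: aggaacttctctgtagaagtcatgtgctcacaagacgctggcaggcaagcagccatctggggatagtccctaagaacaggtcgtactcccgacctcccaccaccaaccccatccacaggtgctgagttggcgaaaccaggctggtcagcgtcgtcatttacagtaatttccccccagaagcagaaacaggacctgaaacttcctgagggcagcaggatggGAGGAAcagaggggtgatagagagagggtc
C3: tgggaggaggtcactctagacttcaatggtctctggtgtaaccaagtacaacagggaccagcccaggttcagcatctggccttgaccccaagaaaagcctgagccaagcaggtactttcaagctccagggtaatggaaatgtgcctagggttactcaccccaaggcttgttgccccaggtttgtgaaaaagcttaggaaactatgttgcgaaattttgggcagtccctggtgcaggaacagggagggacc
The C1qb window holds 1 GAGGAA, starting at position -30 from the start, and 0 TATAAA. The C3 window holds 0 of either. So do the windows of C1ra and Cfp, the other members with an entry, and both of these genes were above background in 12 of 12 samples. Of all 32851 promoter windows of this length, 23.3% hold GAGGAA and 12.4% hold TATAAA, so a single match is common, and no binding was measured here.

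The probes of C1ra and C2, proteases of the classical pathway, held 17 to 265 raw counts per sample. C1ra, which encodes the protease that C1q activates, had 68.5, 70.6, 75.9, 68.0, 79.1 and 69.5 normalized counts in controls 5, 9, 13, 27, 44 and 54. It had 74.1, 79.7, 57.3, 52.7, 49.0 and 66.5 in BDS 7, 21, 25, 35, 43 and 55. Of the BDS samples, 4 lay below the lowest control and BDS 21 lay above the highest. Means were 71.9 ± 4.5 and 63.2 ± 12.2 (SD, n = 6 each), and the control coefficient of variation of 6.28% was below the 11.2% that counting error alone gives. The control range was thus narrow. In BDS the coefficient of variation was 19.3%, against a median of 19.4% over the 357 genes tested. How many tested genes had as many BDS samples outside the control range was not counted. The log2 fold change was -0.19 ± 0.14 (SE), with a 95% interval of -0.50 to 0.12 (edgeR, adjusted p = 0.54). A near-identical gene, C1rb, is known in mice, and the sources used here do not say whether the probe separates them.

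C2, the protease that joins C4b to form the classical C3 convertase, varied more between animals than any other tested member. Controls 5, 9, 13, 27, 44 and 54 had 59.0, 16.2, 52.9, 97.4, 262 and 94.8 normalized counts, a 16.2-fold range. BDS 7, 21, 25, 35, 43 and 55 had 42.2, 69.5, 57.3, 141, 140 and 77.4. All 6 BDS samples lay within the control range. The coefficient of variation was 88.8% in controls and 48.2% in BDS, against 9.62% and 11.0% from counting error, and ranked 7 and 10 of the 357 genes tested. Control 44 was the highest sample, and the lowest, control 9, held 17 counts against a background limit of 16.3. The log2 fold change of -0.13 ± 0.49 (SE) had a 95% interval of -1.17 to 0.92 (edgeR, adjusted p = 0.89) and turned to 0.46 without control 44. It was above 0 under 10 of 27 alternatives. Folds from 0.443 to 1.89 lay within the interval, so the spread between animals limited this comparison.

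C2 moved with Socs1, an inhibitor of cytokine signalling that interferon-gamma induces, more closely than with any other tested gene. In controls 5, 9, 13, 27, 44 and 54 the normalized counts of Socs1 were 43.7, 21.9, 45.9, 59.6, 101 and 71.6, and they were 31.9, 50.9, 49.3, 83.1, 84.4 and 62.9 in BDS 7, 21, 25, 35, 43 and 55. The lowest and the highest control were the same 2 samples for both genes, and in BDS the lowest sample was BDS 7 for both. On deviations from the group means, Pearson's r was 0.97 and Spearman's rho 0.95 over 12 samples, and r was 0.96 over 10 samples without controls 9 and 44. The next genes were Gpr44, a prostaglandin D2 receptor, and Cd74, the invariant chain of MHC class II, at 0.89 and 0.85, or 0.80 and 0.68 without controls 9 and 44. The group means again stayed those of all 12 samples when these controls were left out. With the total endogenous count as the scale, the 3 genes kept their order with r of 0.97, 0.88 and 0.85. This comparison for C2 was added after its values were seen. Each of the 9 members was searched against the tested genes, and the r of C2 with Socs1 was the highest found. For C1ra, Cfi and Cfp the highest r was 0.84, 0.75 and 0.69.

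**Figure D3:**
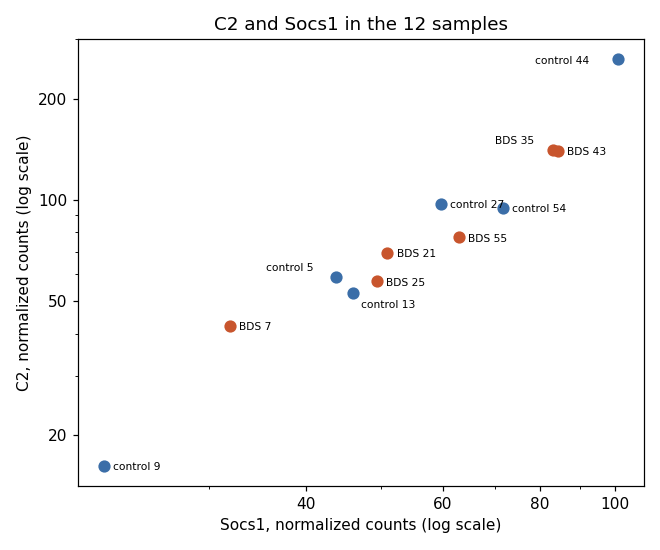
Normalized counts of C2 (y axis) against Socs1 (x axis), both on log scales, in control (blue) and BDS (orange) samples, 1 labelled point per sample. Control 9 is lowest in both genes (16.2 and 21.9) and control 44 highest (262 and 101), with both groups spread along the same line.

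C4a, C3 and Cfb stayed at the level of the negative controls. C3, the central component on which both pathways act, had counts of 7 to 16 in controls and 5 to 17 in BDS and was above background in 0 of 12 samples. C4a, a copy of C4, had 4 to 28 counts in controls and 5 to 16 in BDS, and exceeded the limit in 2 samples, control 27 and control 54. RefSeq lists it as a transcribed pseudogene in this build, and the files do not say whether its probe separates it from the near-identical C4b. Cfb, which encodes factor B, had 6 to 17 counts in controls and 8 to 18 in BDS and exceeded the limit in control 5 alone. No fold change is given for these 3 genes, and a difference between groups was not detectable at this depth. The ratio of C3 to Itgam counts, one of the 4 ratios set in the design, differed by 0.17 on the log2 scale (exact permutation p = 0.67) but rests on background counts of C3.

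Cfi, which encodes the inactivating protease factor I, lay just above the limit. Its raw counts were 20, 24, 27, 34, 29 and 23 in controls 5, 9, 13, 27, 44 and 54, and 18, 13, 11, 25, 30 and 15 in BDS 7, 21, 25, 35, 43 and 55. It exceeded the background limit in 6 of 6 controls and in 2 of 6 BDS samples, BDS 35 and BDS 43. Across the panel 340 to 393 genes did so per control and 298 to 358 per BDS sample. The controls alone met the filter of 5 samples for Cfi. It was thus tested through the group with the higher mean, and its p-values below are no support for a difference. After scaling, the means were 24.0 ± 4.4 and 20.7 ± 3.6 normalized counts (SD, n = 6 each), and all 6 BDS samples lay within the control range of 16.2 to 28.7. The log2 fold change was -0.20 ± 0.18 (SE), with a 95% interval of -0.58 to 0.19 (edgeR, adjusted p = 0.66). With the negative-control mean subtracted from each sample it was -1.04 (limma, unadjusted p = 0.031, adjusted p = 0.27), so its size depended on the treatment of background.

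**Figure D4:**
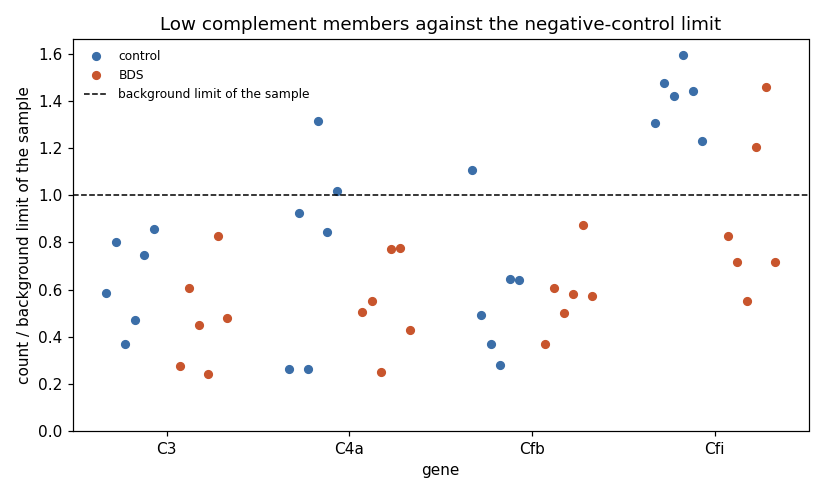
Raw counts of C3, C4a, Cfb and Cfi divided by the background limit of the same sample (y axis, from 0), 1 point per sample, control in blue and BDS in orange, with the limit as a dashed line at 1. C3 is below the line in all 12 samples, while Cfi is above it in 6 controls and 2 BDS samples.

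Cfp, which encodes properdin, the stabilizer of the alternative convertase, had 109.8, 107.8, 102.9, 101.2, 138 and 93.4 normalized counts in controls 5, 9, 13, 27, 44 and 54. Its values were 122, 107, 107, 119.6, 115 and 139 in BDS 7, 21, 25, 35, 43 and 55. The groups overlapped, with 5 of 6 BDS samples inside the control range and control 44 the only control above 110. Means were 109 ± 15.5 and 118 ± 12 (SD, n = 6 each), and the log2 fold change was 0.12 ± 0.13 (SE), with a 95% interval of -0.15 to 0.39 (edgeR, adjusted p = 0.66). It was 0.20 without control 44, 0.071 without BDS 55, 0.080 without control 54 and -0.23 with positive-control scaling.

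Taking the 6 tested members as a set, 0 passed the adjusted threshold and 0 had an unadjusted p under 0.05 in edgeR. Over all 357 genes these counts were 0 and 44 (12.3%), of which 41 (11.5%) were lower and 3 (0.84%) higher in BDS. That split moved with the scaling, to 14 lower and 18 higher with TMM, which sets each sample against the tested genes, 14 and 15 with DESeq2 size factors, and 13 and 19 with the total endogenous count, with 0 members at that p under each. DESeq2 called 6 of the 168 genes to which it gave an adjusted p. Of the members only C1qa and C1qb had one, 0.45 and 0.47, and the smallest unadjusted p of a member in DESeq2 was 0.22. Log2 fold changes were below 0 for 4 members, against 236 of the 357 genes (66.1%), and the median was -0.12 against -0.10. With TMM scaling these medians were 0.0052 and -0.0093. For 0 of the 6 members did all BDS samples lie below all controls, as they did for 4 of the 357 genes (1.12%). At an unadjusted p under 0.05 only C1qa without BDS 21, BDS 25 and BDS 55, and Cfi with background subtracted, appeared among the alternatives.

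The wider complement list, fixed by name, held 32 receptors, regulators, terminal components and other proteases and lectins. Of these 22 were on the panel and 7 were tested, and 0 of the 7 had an unadjusted p under 0.05, with a median log2 fold change of -0.043. Itgam averaged 41231 ± 2999 normalized counts in the controls against 37550 ± 5859 in the BDS samples (SD, n = 6 each), and Itgb2, the beta chain of the same receptor, differed by -0.17 ± 0.10 on the log2 scale (SE; edgeR, adjusted p = 0.45), and its control mean exceeded each of the 6 BDS samples, as it did for 46 of the 357 genes (12.9%). Itgax, the alpha chain of complement receptor 4, was at 0.066 and C1qbp, a C1q-binding protein, at 0.050. Masp1 and Masp2, proteases of the lectin pathway, were at -0.16 and 0.065, and for Masp1 each of the 6 BDS samples lay below the mean but within the range of the controls. Clu, a fluid-phase inhibitor of the terminal complex, was at -0.043. The 7 terminal components on the panel were not tested: none was above background in more than 2 samples.

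**Figure D5:**
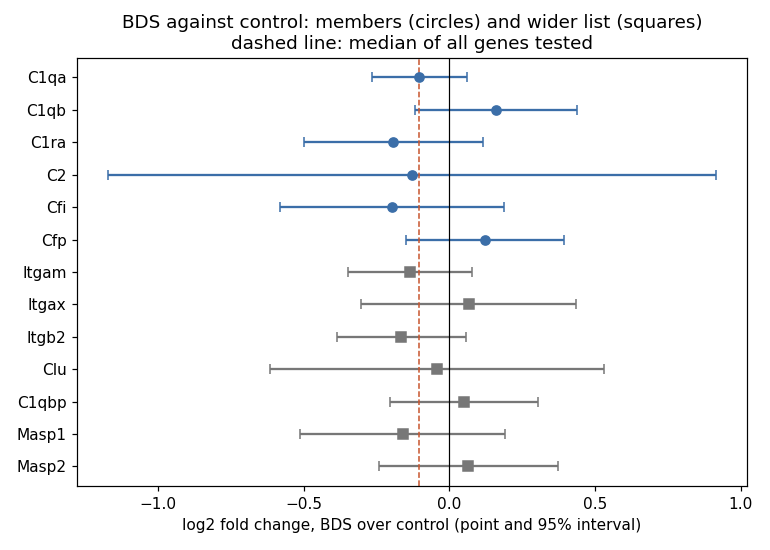
Log2 fold changes of BDS over control (x axis, points) with 95% intervals (bars) from edgeR for the 6 tested members (circles) and 7 genes of the wider complement list (squares); the dashed line is the median of all 357 genes, -0.10. Every interval includes 0, and that of C2 is the widest, from -1.17 to 0.92.

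The authors' deposited table, scaled with 5 of the housekeeping genes, gives C1qa a fold of 0.94 with a p of 0.17 and C1qb a fold of 1.13 with a p of 0.26. For C1ra the authors' deposited table gives 0.89 with a p of 0.14, the smallest p among the 9 members, and for C3 and C4a it lists 8% of samples above background.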

How the data were processed

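RNA of 12 sorted microglia samples (2 ng, 5 PCR rounds) was hybridized to an nCounter mouse immune panel, per the labels' protocols. The deposited count table holds whole-number counts of 573 probes (545 genes, 14 housekeeping genes, 8 negative and 6 positive controls). The second deposited table holds scores that the authors had normalized with positive-control and housekeeping probes, as whole numbers, plus per gene a percent of samples over background, a fold ratio and an unadjusted p-value, per the file headers. Which software read the barcodes: not given in the sources used here.

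Counts were scaled by Alas1, Gapdh, Oaz1, Polr1b, Sdha and Tbp and tested with edgeR 4.0.16 (quasi-likelihood, R 4.3.3, no covariates, Benjamini-Hochberg over 357 genes, threshold 0.05). The test was checked on simulated counts. Ratios were compared with exact permutation tests (scipy 1.17.1) over 924 rearrangements, whose smallest p is 0.00216. The tests' p-values over samples treat litters as independent, and counting errors cover barcode counting only, since PCR copies are not independent molecules. Alternatives used other scalings and filters, DESeq2 1.42.0, limma 3.58.1 and samples left out. Named were all 9 members, the tested genes of the wider complement list, and the 3 genes with the highest r to C1qa, C1qb and C2 each. The fixed rule asked this for C1qa, C1qb and C3; C3 is left out since its counts were at background, and C2 was added. The members and lists were chosen with earlier results of these data known. All 9 accessions were found in the GRCm38.p6 RefSeq table.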

Additional observations from a re-analysis of the deposited data

Results flagged for a closer look

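In 3 of 32 groups of 6 samples checked over the tested genes and 3 ratios, 1 sample stood far from the other 5 by Dixon's criterion at the 95% level, which chance meets in about 1 in 20 groups. Control 44 was high in C2, at 261.9 normalized counts against 97.4 in the next control, and in Cfp, at 138.3 against 109.8. Control 5 was high in Clu, at 59.0 normalized counts against 34.4 in the next control.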

How the results depend on the processing

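No paired analysis was possible because the groups share no sample number in the labels. Of 161 combinations of tested member and alternative, 147 kept the sign of the log2 fold change. An adjusted p was given for 157, of which 0 passed the threshold (0.27 to 0.99); the other 4, C1ra, C2, Cfi and Cfp in DESeq2, had none. C1qa, C1ra and Cfi kept their sign in all of theirs. With positive-control scaling the panel median was -0.50, C1qb was at -0.32, Cfp -0.23, Itgax -0.44, C1qbp -0.39 and Masp2 -0.37. With the housekeeping count as covariate C1qb was at -0.071, C2 0.060, Itgax -0.048, C1qbp -0.094 and Masp2 -0.033. Without BDS 21, BDS 25 and BDS 55, C1qb was at -0.16, C2 0.15, Itgax -0.18, C1qbp -0.13 and Masp2 -0.022, and the log2 differences of the ratios were -0.19 for C1qa to Itgam, -0.15 for C1qb to Itgam and -0.48 for C3 to Itgam. C2 was at 0.021 with TMM, 0.019 with DESeq2 size factors, 0.17 and 0.11 in limma with pseudocounts of 1 and 10, 0.19 on the deposited scores and 0.23 with background subtracted, where the C3 to Itgam difference was -0.22. Clu was at 0.065 with TMM, 0.056 with DESeq2 size factors and 0.045 with total counts.

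With single samples left out, log2 fold changes ran from -0.35 to 0.46 for C2 (above 0 without control 44 or BDS 7), -0.16 to 0.18 for Clu (above 0 without control 5, BDS 7 or BDS 21), -0.042 to 0.16 for Itgax, -0.011 to 0.11 for C1qbp and -0.016 to 0.11 for Masp2. They ran from -0.14 to -0.063 for C1qa, 0.080 to 0.22 for C1qb, -0.26 to -0.12 for C1ra, -0.30 to -0.14 for Cfi and 0.071 to 0.20 for Cfp. The log2 differences ran from -0.32 to -0.17 for the C1qa to C1qb ratio, from -0.065 to 0.14 for C1qa to Itgam and from -0.018 to 0.43 for C3 to Itgam. The member median ran from -0.15 to 0.024, the last without control 44. It was 0.0052 with TMM, -4.1e-05 with DESeq2 size factors, -0.46 with positive-control scaling, 0.0075 and 0.0018 in limma with pseudocounts of 1 and 10, 0.024 on deposited scores and -0.010 with background subtracted. Members at an unadjusted p under 0.05 were 1 with background subtracted and 1 without BDS 21, BDS 25 and BDS 55, and 0 under the other alternatives. Panel genes at that p were 29 with DESeq2 size factors, 22 with the covariate, 20 without those 3 samples, and 26 to 95 with single samples left out (95 without BDS 7, 26 without BDS 25 or BDS 55). Panel genes past the adjusted threshold were 1 with positive-control scaling, 6 in DESeq2 and 0 to 4 with single samples left out (4 without BDS 7). The causes were not tested. Counts near the negative controls limit what can be said of C3, C4a, Cfb and Cfi.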
